A study of Mus musculus with 16 samples.

Results

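The transition from the CD4-CD8- double negative stage 3 (DN3) to the immature CD8 single positive stage (ISP8) was measured in thymocytes that lacked PKBα. Its members are the 8 of 16 arrays whose labels give the genotype PKBalpha-/-, 4 of DN3 and 4 of ISP8 cells, and both arrays of a mouse were paired by the animal number. The mice were C57Bl/6 backcross animals with a germline deletion of PKBα (gene symbol Akt1), so every cell of the thymus, stroma included, lacked it. They were a 5-week-old female, a 2-week-old male, a 3-week-old male and a 3-week-old female, and values of 4 mice are given in this order throughout. Each had a wild-type littermate of the same age and sex, whose 8 arrays are used here for comparison. DN3 cells were sorted with antibodies to CD25, CD44 and a lineage mixture, and ISP8 cells with antibodies to CD3, CD4 and CD8, so Il2ra, Cd44, Cd4, Cd8a, Cd8b1 and the Cd3 genes bear on the sort and are given as a check of it.

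DN3 cells carry CD25 and rearrange the T cell receptor β locus under Notch signalling. A productive β chain pairs with the pre-T cell receptor α chain, and this receptor signals survival, rapid division and the loss of CD25. The dividing cells then gain CD8 in most mouse strains as ISP8 cells, shortly before they gain CD4. PKBα is a serine/threonine kinase activated by phosphatidylinositol 3-kinase downstream of cytokine and antigen receptors.

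The targeted gene was at or near background at most of its probe sets in the PKBα-/- arrays. At the Akt1 probe set with the highest mean, the DN3 signal was 27.3, 2.01, 3.37 and 5.18 and the ISP8 signal 6.41, 4.87, 6.81 and 5.02. In wild-type littermates it lay between 1198 and 2007 at DN3 and between 1628 and 2211 at ISP8, so the genotypes did not overlap. Of the other 3 probe sets of Akt1, 1 stayed above background without PKBα, with means of 46.4 at DN3 and 50.5 at ISP8 and single arrays between 10.3 and 87.9, against 108 to 192 in wild-type arrays. Akt2, the gene of PKBβ, had means of 1029 (DN3) and 1161 (ISP8) without PKBα and did not pass the test (adjusted p = 0.436).

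The sorted subsets carried the transcripts of their labels. Il2ra, which encodes CD25, started at 8263, 8366, 8018 and 10971 in DN3 cells and ended at 122, 241, 209 and 460. Cd8a rose from 16.4, 184, 318 and 82.1 to 6356, 6047, 6220 and 5248. Cd8b1, the β chain of the coreceptor, went from 119, 222, 228 and 140 to 3325, 2147, 2569 and 2187. The subsets did not overlap for any of these genes, and the log2 changes from DN3 to ISP8 were -5.26 ± 0.18 (SE) for Il2ra, 5.98 ± 0.46 for Cd8a and 3.88 ± 0.21 for Cd8b1. Cd4 was near background in DN3 cells, with a mean of 17.7, and stayed low in ISP8 cells at 89.8. Its adjusted p of 0.0137 was lost without the 5-week-old female and without the 3-week-old female. Cd44 did not pass (log2 change -0.69 ± 0.30, adjusted p = 0.106), and Ptprc, the pan-leukocyte antigen CD45, had means of 22147 and 21612. Because these are bulk samples, fewer cells with a transcript and less of it per cell cannot be told apart.

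**Figure D1:**
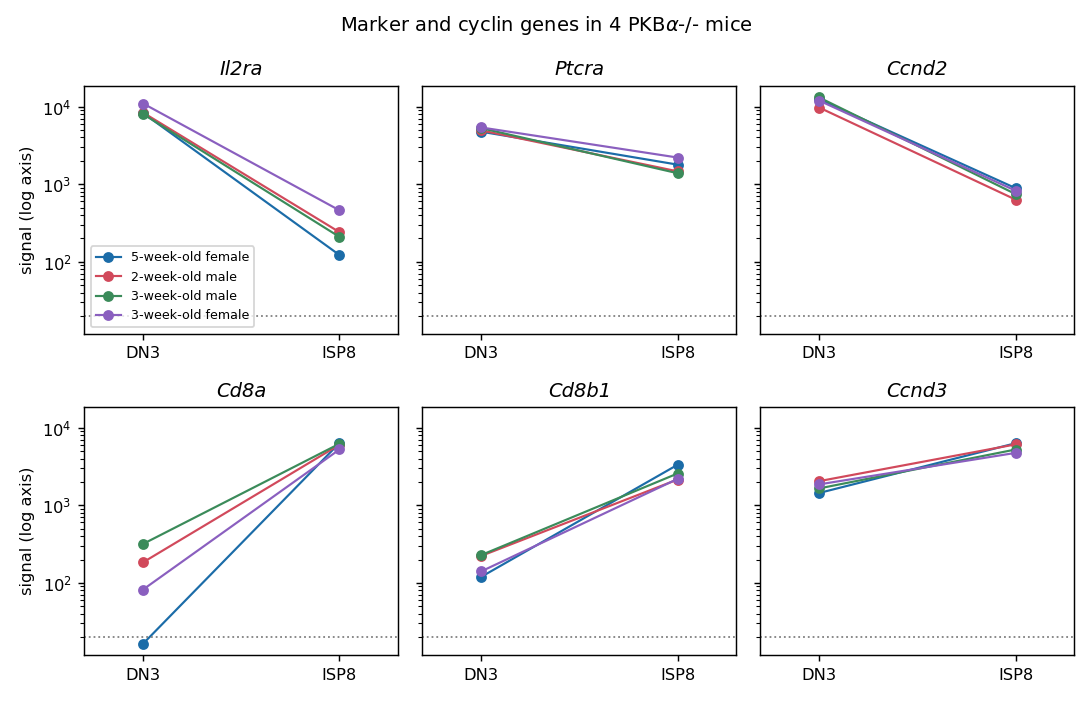
Signal (log axis) of 6 genes in DN3 and ISP8 cells of the 4 PKBα-/- mice, 1 line per mouse, with the dotted line at a signal of 20. Il2ra, Ptcra and Ccnd2 fell and Cd8a, Cd8b1 and Ccnd3 rose in all 4 mice, and no DN3 value lies within the ISP8 range of its gene.

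The array medians lay between 55.1 and 70.5 over the 16 arrays, and arrays of 1 group correlated with a Spearman rho of 0.902 to 0.921. The array numbers in the sample titles run from 1 to 8 for ISP8 and from 9 to 16 for DN3, so array order and subset cannot be told apart. The 3′ minus 5′ log2 signal of the control probe sets, a measure of RNA integrity, differed between ISP8 and DN3 cells by -0.24 for Actb (exact sign-flip test, 2-sided, p = 0.25, n = 4) and by 0.11 for Gapdh (exact p = 0.75, n = 4). With 4 mice this test cannot reach 0.05.

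Without PKBα, 4058 of 34038 tested probe sets were higher in ISP8 than in DN3 cells (11.9%) and 5498 were lower (16.2%) at an adjusted p under 0.05. Of the 9556 probe sets called, 96.5% moved the same way in 4 of 4 mice, against 43.0% of all those tested. The calls rest on the same 4 changes, so this contrast is in part given by the selection and is no separate support. The share of calls that were higher depended on the scaling between arrays, at 42.5% for the values as deposited, 50.3% after quantile normalization and 56.4% after median centring. Median centring moved the median log2 change over tested probe sets from -0.05 to 0.08. It left 8348 of the 9556 calls in place, none of them with the other sign.

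By 1 probe set per gene, 2060 of 14550 genes tested were higher (14.2%) and 2778 were lower (19.1%). The falls were larger than the rises. At least 4-fold changes were called for 430 genes that fell and 150 that rose, and at least 8-fold changes for 188 and 27. By group means, signal was lost outright more often than it appeared. In 22 genes the mean fell from at least 200 in DN3 to under 20, the level taken as background, in ISP8 cells, and in 0 genes did it go from under 20 to at least 200. These are arithmetic means, which 1 array can lift above 20. Pdlim4, for example, had 4.74, 88.4, 9.29 and 9.46 in DN3 cells, a mean of 28.0, and 1028, 644, 600 and 462 in ISP8 cells. It is therefore outside the count of 0.

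**Figure D2:**
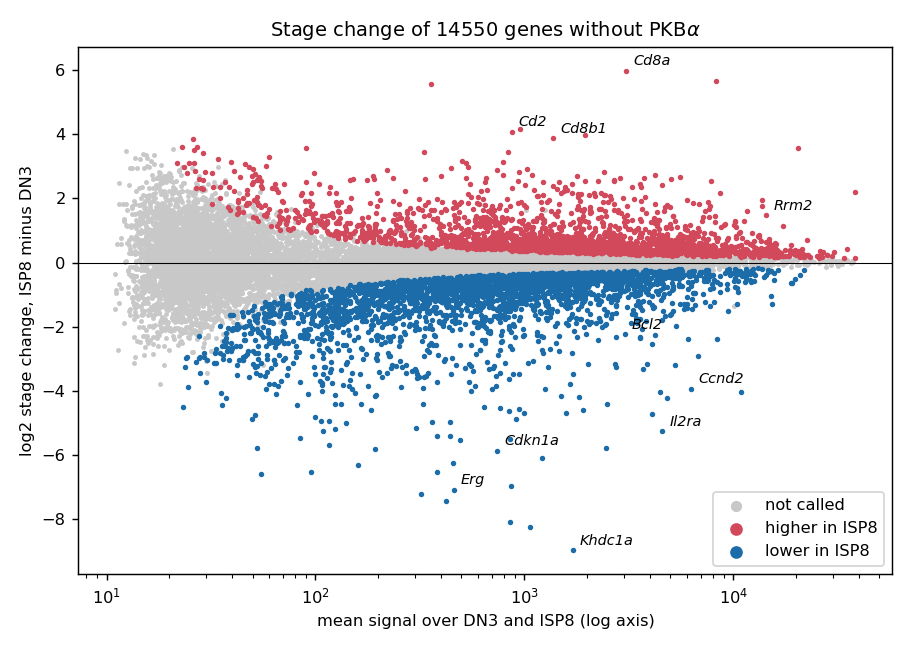
Log2 change from DN3 to ISP8 against the mean signal (log axis) for 14550 genes in PKBα-/- mice, with genes past an adjusted p of 0.05 in red (higher in ISP8) or blue (lower). The falls extend to -8.96 for Khdc1a, whose ISP8 signal is at background, and the rises to 5.98 for Cd8a.

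Khdc1a, a KH domain gene, fell most. From 2476, 3213, 3311 and 4572 at DN3 its signal dropped to 1.16, 18.1, 3.67 and 25.6, so it ended at background and was at least 170-fold lower when background is set at 20. Serpinb1a, an inhibitor of granulocyte serine proteases, went from 1548, 1510, 1618 and 2126 to 2.27, 5.70, 29.9 and 3.75, at least 85.0-fold lower on the same basis. Erg, an ETS family factor of stem and progenitor cells, had 860, 1018, 617 and 1156 in DN3 and 11.2, 9.11, 2.71 and 6.87 in ISP8 cells. In ISP8 cells only Khdc1a in the 3-week-old female and Serpinb1a in the 3-week-old male read above 20 among these 3 genes. Nfe2, a transcription factor known from megakaryocytes and erythroid cells, Cpa3, a mast cell carboxypeptidase also transcribed in progenitors, and Tifa, an adaptor of the NF-κB pathway, fell to a mean under 20 as well, by at least 31.5-fold, 85.6-fold and 37.5-fold between the means. Single ISP8 arrays stayed above 20, at 33.5 for Nfe2 in the 3-week-old male and at 41.6 and 25.6 for Cpa3 in the 2-week-old male and the 3-week-old female. The other genes among the 15 largest falls were Gm19696, 5830468F06Rik, Rxfp1, Gprin3, Scn4b, Cdkn1a, Scel, Pld4 and Hsf2bp. Where the ISP8 signal is under background a fall has only a lower bound, such as at least 11.4-fold for Hsf2bp, 15.7-fold for Rxfp1 and 18.9-fold for Scel, so the order of these genes is not settled. With values floored at 20, 11 of the 15 remained among the 15 largest falls, and Il2ra, Ctla2a, Tshz2 and Sytl4 took the other places. Pld4, a phospholipase D family exonuclease, stayed measurable, with 3004, 6301, 4743 and 5273 in DN3 and 91.2, 71.7, 74.0 and 107 in ISP8 cells.

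Among the 15 largest rises, after Cd8a, stood Cd2, an adhesion receptor of T cells, with 32.3, 114, 103 and 213 before and 1284, 1839, 1709 and 1651 after the step (log2 change 4.08 ± 0.27). H2-Q2, a class Ib histocompatibility gene, rose by 4.16 ± 0.17 on the log2 scale and Pdlim4, a PDZ and LIM domain gene, by 5.56 ± 0.55. Ikzf3, which encodes the Ikaros family factor Aiolos, had 106, 158, 85.8 and 88.0 in DN3 and 586, 1219, 924 and 1056 in ISP8 cells. No array of ISP8 cells overlapped the DN3 range of these 4 genes. They were picked as the largest rises that went one way in 4 of 4 mice, so this is largely given by the choice. The same holds below where a lack of overlap is given for list members picked by their smallest p. Gsn, the actin-severing protein gelsolin, rose by 3.44 ± 0.23, Pif1, a DNA helicase, by 3.13 ± 0.20, Arsi, an arylsulfatase, by 3.45 ± 0.19 and Syt13, a synaptotagmin, by 3.17 ± 0.31 on the log2 scale.

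For 4 of the 15 largest rises fewer than 2 other probe sets of the gene rose although at least 2 were tested. At the probe set that stands for Pik3cd, the catalytic δ subunit of phosphatidylinositol 3-kinase, signal rose by 3.56 ± 0.32 on the log2 scale, while 4 of its 5 other tested probe sets fell, for example from a mean of 1535 to 391. The DN3 and ISP8 values of Pik3cd, Samhd1 and Boll overlapped. Armc8 rose by 3.98 ± 0.26 at 1 probe set, with 1 of the other 4 called lower and none called higher. For Samhd1, a dNTP hydrolase, 1 of 4 other probe sets also rose, and for Boll none of the other 2 was called. In DN3 cells the 2-week-old male stood above the other 3 mice at all 4 of these probe sets, with 5824 against 76.7 to 96.2 for Samhd1, 17057 against 535 to 3081 for Pik3cd, 1141 against 76.1 to 164 for Armc8 and 789 against 28.0 to 80.6 for Boll. The wild-type littermate of that mouse was also highest among wild-type DN3 arrays at the same probe sets of Pik3cd, at 20067 against at most 931, of Armc8, at 1847 against at most 126, and of Boll, at 656 against at most 9.81. The pattern was not particular to these genes, since the same mouse also stood highest at Pdlim4 in DN3 cells, at 88.4 against at most 9.46, and its littermate at 1700003E16Rik, at 625 against at most 15.3. At Samhd1 it was not set apart, at 107 against at most 106. These probe sets and this mouse were singled out after their values were seen.

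**Figure D3:**
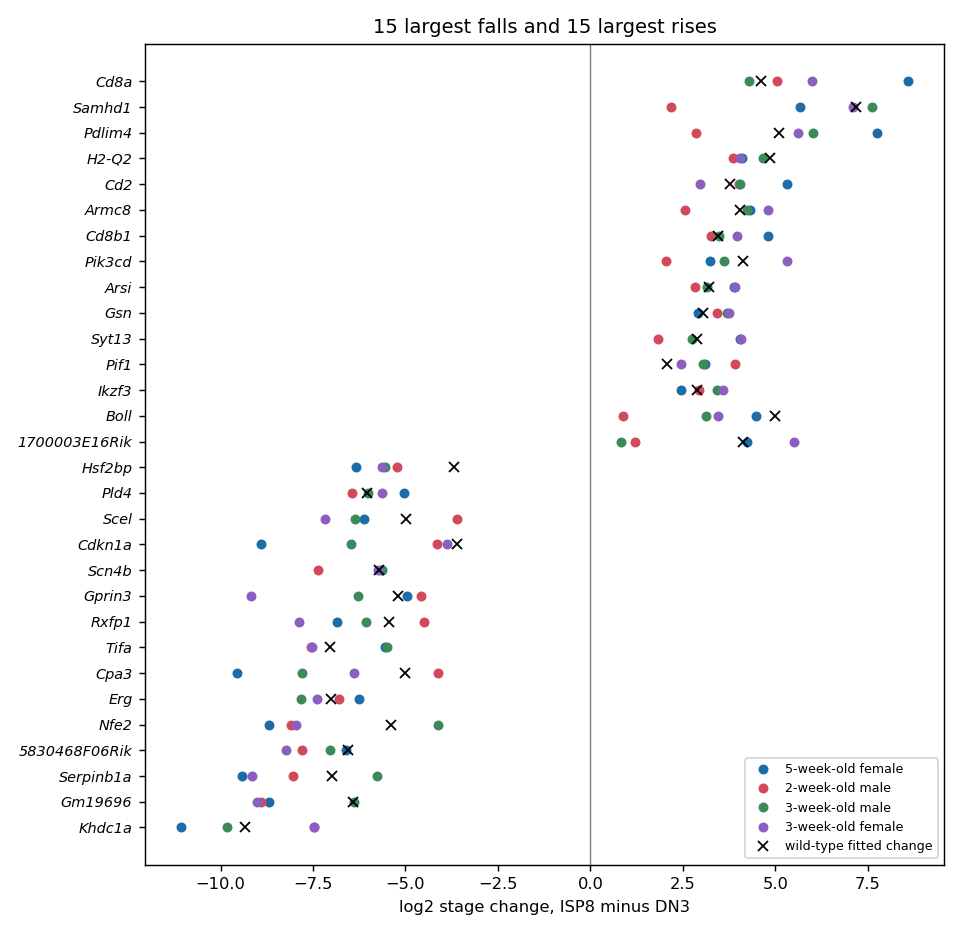
Log2 change from DN3 to ISP8 of the 15 largest falls and 15 largest rises, with 1 point per PKBα-/- mouse and a cross for the fitted change in wild-type mice. All points of a gene lie on 1 side of 0, and the 2-week-old male has the smallest rise at Samhd1, Pik3cd, Armc8, Boll, Pdlim4, Cd8b1, H2-Q2, Arsi and Syt13.

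Cell division genes rose as a body. All 49 tested members of the list of mitosis and chromosome segregation were higher in ISP8 cells (48 after quantile normalization), with a median log2 change of 2.00 against -0.03 over all genes tested, and a median of 1.63 to 2.35 in each of the 4 mice. Ube2c, the ubiquitin-conjugating enzyme of the anaphase-promoting complex, went from 389, 445, 845 and 850 to 3948, 3378, 4920 and 4576. Kif2c, a microtubule-depolymerizing kinesin, went from 548, 803, 850 and 960 to 3844, 4655, 4811 and 5007 (log2 change 2.56 ± 0.10, adjusted p = 8.50e-10). The subsets did not overlap in either gene. Cenpf, a kinetochore protein, rose by 2.72 ± 0.13 and Spc25, a subunit of the kinetochore complex that holds microtubules, by 2.43 on the log2 scale.

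DNA replication genes rose less steeply, with 44 of 50 members higher, 0 lower and a median log2 change of 0.72. Rrm2, the regulated subunit of ribonucleotide reductase, had 6448, 7400, 8098 and 8579 in DN3 and 22267, 21191, 21352 and 19953 in ISP8 cells. Rrm1, its catalytic partner, rose by 1.21 ± 0.08 and Cdc6, which loads the replicative helicase, by 1.21 ± 0.10 on the log2 scale.

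RefSeq windows from 250 bases before to 50 bases after the transcription start (GRCm38.p6, the first window listed for each gene) were searched on both strands, which was done for these lists after their values were seen. The NFY box CCAAT lay in 31 of 40 mitosis windows (77.5%) against 37.9% of 27025 windows of all genes, and the cell cycle homology region TTTGAA in 30 of 40 (75.0%) against 18.1%. Of replication windows 22 of 41 (53.7%) held CCAAT and 6 of 41 (14.6%) TTTGAA, the latter below the share of all windows. Both occurred in 67.5% of mitosis windows and 7.12% of all windows. The E2F site, TTTCCCGC or TTTGGCGC, lay in 12 of 41 replication windows (29.3%), in 5.00% of mitosis windows and in 1.63% of all. The E box CANNTG lay in 24 of 40 mitosis windows, 65.9% of replication windows and 72.1% of all. Among the 15 largest rises 9 had a window, of which 2 held CCAAT, 1 held TTTGAA and 6 an E box. Of the 9 windows of the 15 largest falls 2 held CCAAT, 3 held TTTGAA and 7 an E box, and neither set held the E2F site. Of the 6 mitosis members with the smallest p, 4 held CCAAT together with TTTGAA, and they are shown with Cdc6, the only one of the 6 such replication members with an E2F site. Capitals mark these motifs on either strand (the NFY box, the cell cycle homology region and the E2F site), and each window reads 5′ to 3′ on the strand of its gene.
Spc25 (chr2:69206164-69206463, minus strand): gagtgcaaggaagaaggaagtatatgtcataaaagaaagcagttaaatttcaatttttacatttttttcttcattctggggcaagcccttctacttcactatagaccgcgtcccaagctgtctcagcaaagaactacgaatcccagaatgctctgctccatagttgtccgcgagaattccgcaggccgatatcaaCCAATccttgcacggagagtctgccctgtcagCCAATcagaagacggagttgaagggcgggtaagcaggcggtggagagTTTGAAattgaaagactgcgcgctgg
Cenpf (chr1:189688037-189688336, minus strand): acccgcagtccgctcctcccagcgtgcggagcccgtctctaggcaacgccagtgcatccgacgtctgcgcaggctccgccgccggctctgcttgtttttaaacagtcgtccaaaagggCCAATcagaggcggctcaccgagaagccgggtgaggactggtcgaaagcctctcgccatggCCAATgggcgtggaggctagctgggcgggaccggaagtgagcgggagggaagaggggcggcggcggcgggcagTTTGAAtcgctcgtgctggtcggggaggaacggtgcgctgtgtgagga
Ube2c (chr2:164769679-164769978, plus strand): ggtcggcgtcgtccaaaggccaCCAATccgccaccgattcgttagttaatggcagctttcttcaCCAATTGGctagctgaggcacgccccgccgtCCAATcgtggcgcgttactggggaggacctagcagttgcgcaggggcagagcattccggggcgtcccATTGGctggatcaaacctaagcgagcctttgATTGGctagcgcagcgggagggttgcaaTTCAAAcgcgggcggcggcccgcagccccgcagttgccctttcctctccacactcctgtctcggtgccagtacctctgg
Kif23 (chr9:61946750-61947049, minus strand): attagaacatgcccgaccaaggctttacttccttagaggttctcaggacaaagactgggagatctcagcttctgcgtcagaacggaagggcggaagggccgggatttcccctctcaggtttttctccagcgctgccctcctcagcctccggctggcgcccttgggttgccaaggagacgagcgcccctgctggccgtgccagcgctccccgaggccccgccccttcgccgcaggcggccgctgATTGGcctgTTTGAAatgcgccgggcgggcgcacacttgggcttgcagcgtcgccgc
Cdc6 (chr11:98907901-98908200, plus strand): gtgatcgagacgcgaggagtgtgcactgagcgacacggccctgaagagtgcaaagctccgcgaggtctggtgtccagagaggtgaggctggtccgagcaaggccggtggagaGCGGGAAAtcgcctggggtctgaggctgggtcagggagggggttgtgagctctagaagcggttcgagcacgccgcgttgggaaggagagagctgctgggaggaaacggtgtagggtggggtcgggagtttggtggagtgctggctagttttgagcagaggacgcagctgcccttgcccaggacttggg

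The D cyclins exchanged places. Ccnd2, the D-type cyclin of DN3 cells, had 12434, 9730, 13121 and 11958 in DN3 and 890, 633, 746 and 825 in ISP8 cells (log2 change -3.94 ± 0.09, adjusted p = 5.40e-12). Ccnd3, which early thymocytes need to expand, went from 1442, 2049, 1651 and 1861 to 6310, 6097, 5238 and 4739. Neither gene overlapped between the subsets. In the list of G1 regulators 18 of 28 members rose and 4 fell, with a median log2 change of 0.75. The members that fell were Ccnd2, Cdk6, its kinase partner (-1.28 ± 0.07), Cdkn1a, the inhibitor p21, and Tfdp2, a partner of E2F factors (-0.74, named after its value was seen). Cdkn1a went from 1864, 1559, 1566 and 786 to 3.87, 87.3, 17.5 and 53.9, and no array of 1 subset reached the range of the other. Cdkn2c, the inhibitor p18, moved the other way, from a mean of 245 to 1826. Of the MYC network, 5 of 11 members fell and 2 rose, with Mycn at -3.17 and Mxd3 at 2.33 on the log2 scale.

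The counts of list members below stand against 14.2% of all genes higher and 19.1% lower. Some lists hold genes that bear on the sort, so part of their counts may follow from it. Il2ra counts in the DN3, Notch and cytokine receptor lists. Cd8a and Cd8b1 count in the ISP8 list, and the pre-T cell receptor list holds Cd3g. Genes of the DN3 stage fell in 17 of 20 cases, with 1 higher and a median log2 change of -2.14. They were listed as genes of that stage, so their direction is in part given by the choice. Ptcra, the pre-T cell receptor α chain, had 4754, 4946, 5282 and 5392 in DN3 and 1788, 1465, 1386 and 2207 in ISP8 cells. Il7r, the receptor of the survival cytokine IL-7, fell from 6174, 6109, 7507 and 7094 to 660, 638, 748 and 650. The decline was uneven within the list, since Rag1, a recombinase subunit, lost only 0.30 ± 0.07 on the log2 scale and was no longer called after median centring. Genes of the ISP8 and double positive stages split, with 9 of 17 higher and 5 lower. Besides Cd8a, Cd8b1 and Cd2, Cd28, Cd6 and Bcl2l1 rose, by 1.53, 1.65 and 1.42 on the log2 scale. Lower on the same scale were Cd1d1 (-1.20), Ly6d (-0.77), Aqp11 (-0.64), Cd27 (-0.49) and Arpp21 (-0.38), named after their values were seen.

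Notch pathway genes fell in 14 of 24 cases and rose in 1, with a median log2 change of -0.63. The receptors declined to different degrees. Notch1 had 23619, 22232, 24012 and 22428 in DN3 and 15152, 13169, 14576 and 16273 in ISP8 cells, and Notch3 had 6579, 5711, 6062 and 5161 against 1008, 1322, 1377 and 2089. Among targets, Hes1, a repressor, fell from 3158, 3077, 2837 and 2296 to 186, 204, 115 and 145, and Dtx1, a ubiquitin ligase, by 2.36 ± 0.16 on the log2 scale. The list holds Il2ra and Ptcra too, which are also DN3 stage genes.

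Transcription factors of progenitors fell in 11 of 19 cases and rose in 0, with a median log2 change of -1.73. Besides Erg and Nfe2, these included Spib (-3.54), Hoxa9 (-3.47), Mycn and Bcl11a (-2.30). With values floored at 20 the counts of this list were the same and its median was -1.19. In ISP8 cells 5 of its 21 measured members had a mean under 20. Factors of the T lineage were divided, with 10 of 32 higher (31.2%) and 12 lower (37.5%), both above the shares of all genes. Ikzf3, Nfatc3 (1.07) and Satb1, a chromatin organizer (0.92), rose on the log2 scale, and Bach2 (-2.73), Runx1 (-1.44) and Tcf4 (-1.43) fell. Chromatin genes were divided as well, with 10 of 29 higher (34.5%) and 8 lower (27.6%). Ezh2, the histone methyltransferase of polycomb complex 2, rose by 1.10 ± 0.07 and Dnmt1, the maintenance DNA methyltransferase, by 0.76, while Dnmt3b, a de novo methyltransferase, fell by 1.82 on the log2 scale.

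In the list of the pre-T cell receptor complex and proximal kinases 13 of 28 members fell and 3 rose. Cd3g, a CD3 chain that bears on the sort, fell by 1.24 on the log2 scale. Sla, an adaptor that limits receptor signalling, rose by 1.68 ± 0.09 on the same scale. Of genes induced by this receptor, 6 of 21 rose (28.6%) and 5 fell (23.8%). Cd5, Nfkbia and Ccnd3 were among the rises and Cd53, a tetraspanin, and Nfatc1 among the falls.

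Genes of cytokine receptors and JAK-STAT signalling fell in 18 of 37 cases and rose in 3, with a median log2 change of -0.59. Socs3, a feedback inhibitor of cytokine receptors, had 3585, 4151, 3356 and 2719 in DN3 and 244, 162, 169 and 188 in ISP8 cells. Socs2, of the same family, went from 612, 835, 506 and 1030 to 7.88, 35.9, 10.7 and 28.7, and Cish and Stat4 fell by 3.52 and 1.89 on the log2 scale. The subsets did not overlap for Socs2 or Socs3.

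Most interferon-inducible genes tested were lower in ISP8 cells. Of type I interferon genes, 26 of 44 fell and 4 rose, with a median log2 change of -0.85 and medians from -1.15 to -0.45 in single mice. Ifih1, a sensor of double-stranded RNA, went from 3042, 2667, 3556 and 3670 to 775, 628, 549 and 842. Ifit2 of the same list went the other way, from a mean of 1014 to 2415. Genes of interferon γ-inducible GTPases and antigen presentation fell in 17 of 23 cases and rose in 1. Gbp6, a guanylate-binding protein, had 7932, 6886, 6881 and 6012 in DN3 and 1755, 978, 1087 and 1083 in ISP8 cells, and H2-K1, a classical class I gene, fell by 1.60 ± 0.10 on the log2 scale. DN3 and ISP8 values did not overlap for Ifih1, Gbp6 or H2-K1.

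Adhesion molecules fell in 18 of 36 cases and rose in 4. Mpzl2, an immunoglobulin-fold adhesion molecule of thymus, fell from 10046, 8755, 8646 and 9272 to 436, 486, 538 and 503. In the list of survival and death genes 8 of 24 fell (33.3%) and 6 rose (25.0%), against 19.1% and 14.2% of all genes. Bcl2 went from 5753, 4467, 4473 and 5139 to 777, 988, 1076 and 1500, while Bcl2l1, which encodes the related Bcl-xL, went from 386, 458, 424 and 433 to 1131, 1216, 1123 and 1089. The subsets did not overlap for either of these inhibitors of apoptosis. Bcl2 was called lower at all 4 other probe sets tested, but Bcl2l1 was called at none of its other 3.

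The pathway of PKB itself showed no common direction. Of 38 tested members of the PI3K, PKB and mTOR list, 6 rose and 10 fell, shares of the order of the 14.2% and 19.1% of all genes, and the median log2 change was -0.02. The rises include Pik3cd, with its divided probe sets. Tbc1d4, a PKB substrate in glucose transport, fell by 2.20 on the log2 scale, Foxo3, a transcription factor that PKB phosphorylates, by 1.08, Eif4ebp1, a translation repressor under mTOR, by 1.27, and Pik3r1, a regulatory subunit, by 0.83. Of 27 FOXO target genes 9 fell and 4 rose, with Pik3ip1, an inhibitor of phosphatidylinositol 3-kinase, at -2.33 and Bcl6, a repressor, at 1.84 on the log2 scale. Both medians changed sign in some scalings, the first to 0.11 under median centring and the second to 0.01 under quantile normalization.

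Of respiratory chain subunits 40 of 79 rose (50.6%) and 3 fell, against 14.2% and 19.1% of all genes, with a small median log2 change of 0.22. The count of rises was 29 after quantile normalization and 51 after median centring. Cytosolic ribosomal proteins had 1 of 42 higher and 4 lower, and ribosome biogenesis factors 9 of 47 higher and 2 lower. Glycolysis and pentose phosphate genes were split, with 8 of 23 higher (34.8%) and 6 lower (26.1%), and Pfkp, a phosphofructokinase, rose by 1.55 while Pdk1, which restrains pyruvate oxidation, fell by 0.92 on the log2 scale. Nutrient transporters rose in 5 of 15 cases (33.3%) and fell in 1. Sterol and fatty acid synthesis had 3 of 32 higher (9.38%) and 5 lower (15.6%), near or below the shares of all genes.

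**Figure D4:**
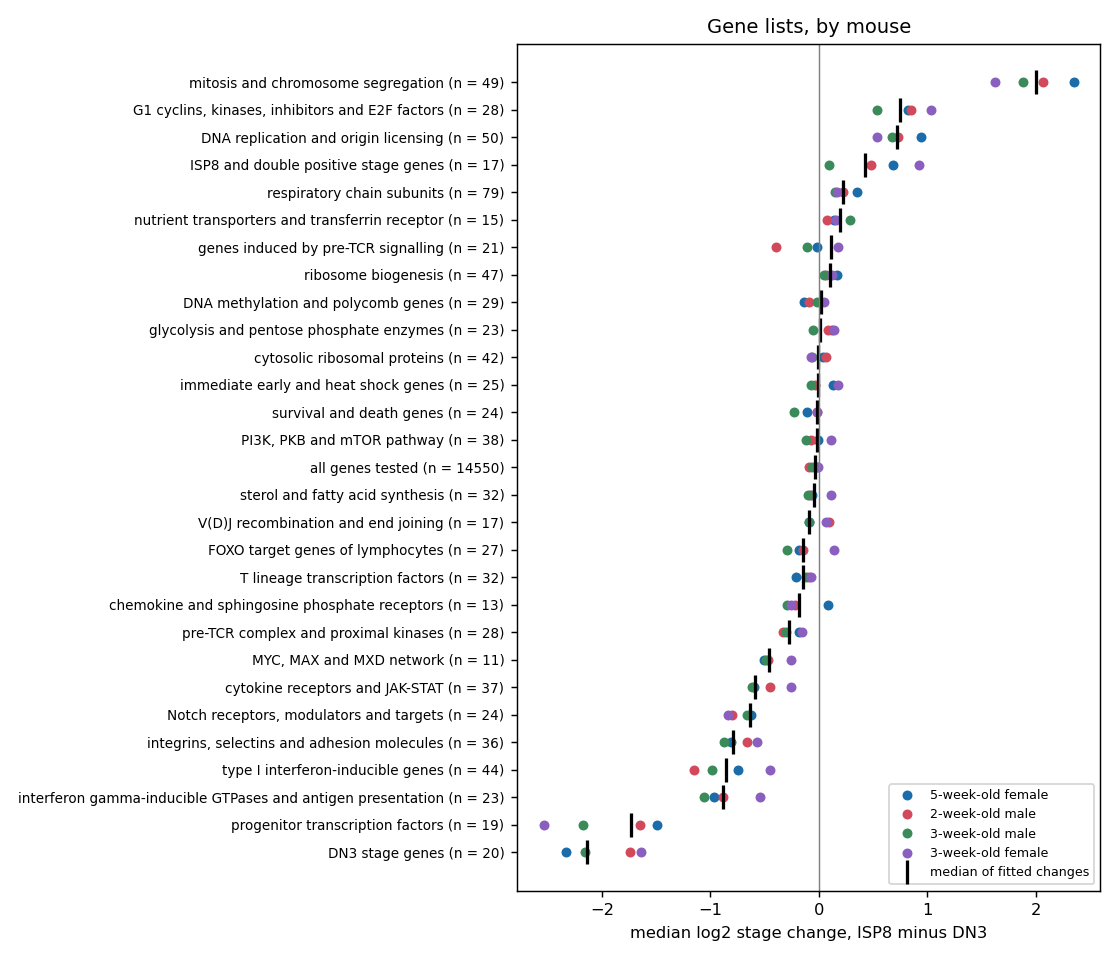
Median log2 change from DN3 to ISP8 of each gene list, 1 point per PKBα-/- mouse, with the black bar at the median of the fitted changes and n the members tested. The mitosis list lies between 1.63 and 2.35 in all 4 mice and the DN3 list between -2.33 and -1.64, while all genes tested lie between -0.09 and 0.00.

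Lists of markers of other cells were measured beside these genes. Dendritic cell and macrophage markers rose in 2 of 17 cases (11.8%) and fell in 3 (17.6%), near the 14.2% and 19.1% of all genes, with a median log2 change of 0.13. Mpeg1, a macrophage gene, rose from a mean of 71.5 to 217, while Lyz1 and Lyz2 fell. H2-Aa, a class II chain, rose by 0.80 on the log2 scale (limma adjusted p = 0.048), with 2.18, 0.29, 0.41 and 0.30 in single mice. Csf1r was called lower at -1.20 but changed by 0.12 in the 5-week-old female. The DN3 and ISP8 values of H2-Aa and Csf1r overlapped, and for each gene 0 of 2 other tested probe sets were called. Lyz1, a lysozyme, had 3995, 1833, 3025 and 2714 in DN3 and 930, 59.1, 59.4 and 42.1 in ISP8 cells. The signal summed over that list spanned 5118 to 8334 among DN3 arrays and 3345 to 5731 among ISP8 arrays, with 2 and 1 of its 17 measured members under 20. Of γδ T cell markers 4 of 6 fell and 0 rose, and the sum went from between 2772 and 5726 to between 754 and 1044. Cd163l1 alone had 4375, 1761, 1908 and 1712 in DN3 and 246, 483, 408 and 496 in ISP8 cells. Thymic epithelium and stroma markers fell in 4 of 16 cases, with sums of 2449 to 2950 and of 875 to 1276. The B cell list gave 1 of 10 higher and 2 lower, with a median log2 change of 0.05. Cd79b, a chain of the B cell receptor, and Vpreb1, of the surrogate light chain, fell by 2.12 and 2.27 on the log2 scale. Ighm, the immunoglobulin μ chain, rose from a mean of 9363 to 17134, with 1 of its 8 other tested probe sets called the same way, and made up most of sums of 9928 to 13015 and of 14872 to 22543. Innate lymphoid markers had 3 of 9 higher and 1 lower, with 6 of 11 measured members under 20 in DN3 cells. Of the rises, Klrd1 and Tbx21 had DN3 means under 20, at 16.2 and 6.03, and ISP8 means of 104 and 46.7. Gzma rose by 0.23 on the log2 scale with overlapping subsets. Nkg7, the member called lower, went from a mean of 1625 to 148. Mature single positive markers had 0 of 13 higher and 3 lower. Of erythroid and neutrophil markers 0 of 6 and 0 of 5 were called in either direction by limma, and the list of immediate early and heat shock genes, a sign of handling, had 7 of 25 higher and 4 lower. The part of such cells in the results above was not tested.

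The same step was compared with that of the wild-type littermates. In wild-type mice 14.1% of 14697 genes were higher and 19.8% were lower. Over all 13673 genes tested in both genotypes the changes had a Pearson r of 0.755 and a Spearman rho of 0.709. Over 8586 genes with a mean of at least 200 in some group, they had a Pearson r of 0.957 across genes, which are not independent replicates, and SDs of 0.905 without PKBα and 0.930 in wild-type mice. Of 4827 genes called without PKBα and tested in wild-type mice, 98.9% had the same sign there. The 3958 genes called in the same direction in both were 82.0% of those called without PKBα and 79.8% of those called in wild-type mice, and 0 were called in opposite directions. All 49 mitosis genes rose in wild-type mice too, with a median of 2.04.

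The difference between the genotypes was tested itself. None of 36741 probe sets passed (0.0%) by limma, with 1709 (4.65%) at an unadjusted p under 0.05 and a smallest adjusted p of 0.97. Each PKBα-/- mouse had a littermate in the wild-type group, and at 15967 probe sets with a mean of at least 200 the stage changes of littermates deviated together (r 0.19 to 0.30, against -0.24 to 0.10 for mice of different litters). With the littermate pair as a block, an alternative chosen after the data were seen, 1 probe set passed, of Nrip2, a nuclear receptor interacting protein (difference -4.48 ± 0.35, adjusted p = 0.000156, and 0.97 without that block), and 2473 had an unadjusted p under 0.05. Its signal went from 23.1, 2075, 285 and 33.8 in DN3 to 137, 1241, 10062 and 474 without PKBα. In wild-type littermates it went from 89.2, 3898, 9.72 and 19.0 to 7194, 18651, 21048 and 9842. The log2 change was lower than in the littermate in all 4 pairs, the 2-week-old male and its littermate were again highest in DN3 cells, and the other Nrip2 probe set tested had an adjusted p of 0.765 with the block. The lack of other calls does not show that the changes were equal. Over the 17307 probe sets with a mean of at least 200, the unadjusted 95% interval of the difference extended a median of 0.46 to each side on the log2 scale. A call after adjustment over 36741 probe sets needs a larger difference than that. Ccnd2, for example, differed by -0.52 ± 0.13 with an adjusted p of 0.97 by limma. Differences of that order, and larger ones, could therefore go undetected at most probe sets.

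Among the genes with the smallest unadjusted p without the littermate block, Uri1, a prefoldin-like protein, changed by -0.17 without PKBα and by 0.44 in wild-type mice (difference -0.61, 95% interval -0.93 to -0.30), and Comtd1 by -0.54 and 0.22 (-0.77, -1.17 to -0.36). Ccnd2 changed by -3.94 without PKBα and by -3.42 in wild-type mice (difference -0.52, interval -0.80 to -0.24). Prkcq, the protein kinase Cθ of T cell receptor signalling, changed by -0.53 and -1.28 (0.75, 0.33 to 1.16), and its call without PKBα was lost without the 5-week-old female and without the 2-week-old male. Slc30a4, a zinc transporter, changed by 0.73 and 0.16 (0.57, 0.26 to 0.89). These genes were picked by their small p, so their intervals, not adjusted for that choice, exclude 0 by selection. None passed after adjustment by limma, where the smallest adjusted p was 0.97. The most extreme values of this kind, at Pxt1, Thnsl2, Spats1, 2010001A14Rik, Mab21l2, Snhg11 and Gm12992, came from genes whose group means all lay under 140. Cdkn1a changed by -5.86 and -3.60 at 1 probe set and by -6.13 and -5.43 at the other, and ISP8 arrays at background (3.87 and 17.5 at the first) leave the size of this difference unsettled.

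**Figure D5:**
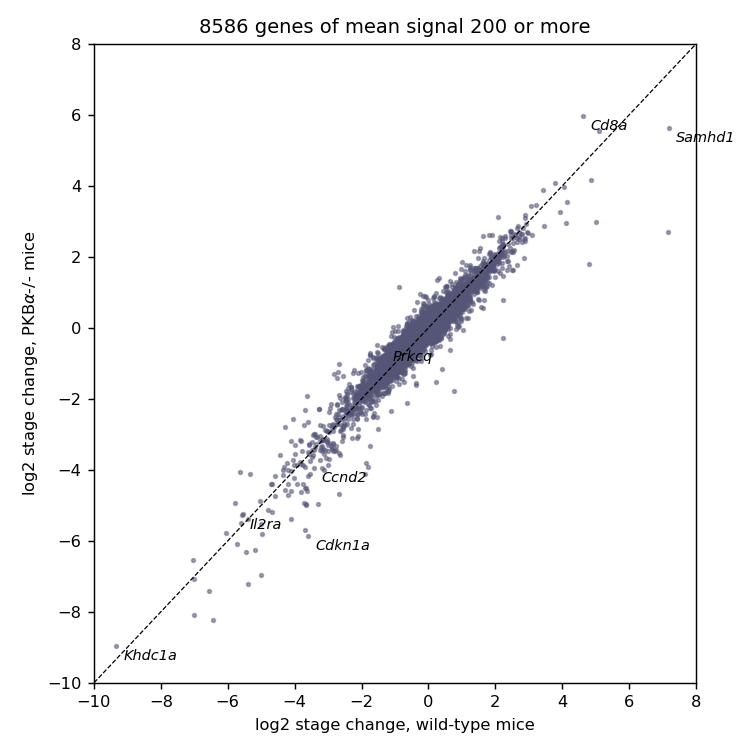
Log2 change from DN3 to ISP8 in PKBα-/- mice against that in wild-type littermates for 8586 genes with a mean signal of at least 200 in some group, with the dashed line where both are equal. Most genes lie near the line. Cdkn1a lies below it at -5.86 and -3.60, where 2 of the 4 PKBα-/- ISP8 arrays are under a signal of 20.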

How the data were processed

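Affymetrix mouse 430 2.0 arrays of sorted cells, 4 per group, were analysed. The deposited values are linear signal intensity that the authors estimated with GCRMA after a 2-cycle amplification, which spreads the lowest values. Of 45101 probe sets, 34958 had 1 symbol, 932 several and 9211 none in the annotation given, and 34754 matched RefSeq by Entrez number. A gene stands by its probe set of highest mean over 16 arrays. Values were taken as log2 and not rescaled. A probe set was tested where 3 or more mice exceeded 20 in a subset. Limma 3.58.1 (R 4.3.3, moderated with a trend) was fitted with the mouse as a block, and p-values were Benjamini-Hochberg adjusted over all probe sets tested. The block follows from both arrays coming from 1 mouse. Deviations of same-mouse arrays correlated at -0.03 to -0.02. The genotype difference used all 16 arrays. Means are arithmetic, log2 changes fitted. The number of arrays limits precision.

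Named were the 15 largest changes per direction (4 of 4 mice, mean of at least 200), up to 6 members of smallest p per list, sort and PKB genes, and 8 genes per direction of the difference. Members, lists and tests were chosen with earlier results of these data known. Respiratory and ribosomal lists follow symbol prefixes without assembly factors and pseudogenes. Fits were tested on simulated data. Alternatives were other filters, a constant or floor of 20, quantile normalization, median centring, no block, a littermate block, robust moderation, 1 fit of all arrays, the methods' t-test and leaving out each mouse.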

Additional observations from a re-analysis of the deposited data

Results flagged for a closer look

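In 90 values compared over the 4 PKBα-/- mice, 5 had 1 mouse far from the other 3 relative to the whole range, and chance alone gives about 1 in 20. The 3-week-old male stood apart at Gm19696 (log2 stage change -6.38, others -9.01 to -8.68), Nfe2 (-4.12, others -8.70 to -7.97) and Zfp711 (-2.33, others -1.32 to -1.22). The 2-week-old male stood apart at Scn4b (-7.37, others -5.74 to -5.63). The 3-week-old female stood apart in the median of the MYC, MAX and MXD network (-0.25, others -0.51 to -0.47). In the mouse that stood apart the ISP8 signal was 19.2 at Gm19696, 33.5 at Nfe2 and 13.9 at Scn4b, near the background level of 20.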

How the results depend on the processing

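The counts of 4058 higher and 5498 lower probe sets stayed within 1.5 times under every alternative but 3. Robust moderation without a trend gave 1310 and 2414, the methods' t-test after Benjamini-Hochberg adjustment 1294 and 1742, and the methods' selection (p at most 0.05 and 1.5-fold in 3 of 4 mice) 2137 higher. Without the pairing by mouse (no replicate block) the counts were 3554 and 5005, and without each mouse in turn 3259 to 3525 and 4408 to 4771. The difference between genotypes gave 0 calls under every alternative run but 1, with 969 to 2473 probe sets at an unadjusted p under 0.05. With littermate pairs as a further block, chosen after seeing the data, it gave 1 call (Nrip2). Of 202 named genes called, none reversed. The call was lost for 76 under the methods' t-test after Benjamini-Hochberg adjustment, which the methods did not apply, Cd8a and Cdkn1a included. It was lost for 52 under robust moderation and for 9 to 12 when 1 mouse was left out. The median of chemokine and sphingosine phosphate receptors (-0.19, 13 genes, 0 higher and 1 lower) turned to 0.023 without a filter and to 0.055 with a constant of 20, with a floor at 20 and without genes of mean under 20, and lay between -0.283 (without the 3-week-old female) and 0.096 (without the 3-week-old male) when 1 mouse was left out, at 0.056 without the 2-week-old male. The cause was not tested. In all, 17 of 36 list medians changed sign under some alternative, and those of the DN3, progenitor, Notch, interferon, cytokine receptor, adhesion, G1, replication and mitosis lists did not. The other scalings of the share of rises and of list counts were chosen after seeing the data. With 4 mice and ISP8 values near background, large falls are bounds rather than sizes.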

Other observations

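Gene families named by symbol, chosen after the data were seen, gave further counts without PKBα, which stand against 14.2% of all genes higher and 19.1% lower. Centromere proteins (Cenp) were higher in 18 of 21 cases and lower in 0, with a median log2 change of 1.30, and nucleoporins (Nup) in 13 of 18 and 0. Proteasome subunits (Psm) were higher in 26 of 38 cases and lower in 2. Zinc finger genes with a Zfp symbol went the other way, with 9 of 301 higher and 104 lower and a median of -0.34. Under median centring 14 were higher and 67 lower, beside 2812 and 2184 of all 14550 genes. Gimap GTPases had 0 of 8 higher and 4 lower.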
